A study of Mus musculus with 4 samples.

Results

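The genes described here are the mouse Zfp genes of chromosomes 7 and 13, taken as every gene in the authors' deposited table with a symbol of Zfp, a number and at most 1 letter. They number 130 of the 25177 gene symbols listed, 93 on chromosome 7 and 37 on chromosome 13, and the transcript with the highest mean level stands for each gene. RNA of nuclei was sequenced from NIH-3T3 cells, a mouse embryo fibroblast line, in which doxycycline switches on CDX2, a homeobox transcription factor of the gut and trophectoderm. The Dox group had 2 libraries of cells given 500 ng/ml doxycycline for 6 h, and the noDox group had 2 libraries of cells given solvent alone for 6 h, with 500000 cells per library. All 4 libraries came from cells that carry stable H2B-mCherry, the rtTA3G transactivator and CDX2 under the TRE3G promoter, kept under puromycin. No library of doxycycline-treated cells without the CDX2 transgene is among the 4, so effects of the drug and of CDX2 cannot be told apart. Nothing in the labels says that the replicates were separate cultures, so the p-values may measure technical spread only.

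Most Zfp genes encode C2H2 zinc finger proteins, in which tandem fingers read DNA sequence. Many also carry a KRAB domain, which binds Trim28 (KAP1), and Trim28 in turn brings in the histone H3 lysine 9 methyltransferase Setdb1 and HP1 proteins to silence transposable elements and some genes. KRAB zinc finger genes multiplied by tandem duplication and lie in clusters, several of them on mouse chromosomes 7 and 13. The symbol is wider than the KRAB type: Zfp36 encodes tristetraprolin, a CCCH-type protein that binds AU-rich mRNAs and promotes their decay, and Zfp143 encodes a C2H2 activator that binds promoters.

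Induction was checked on Cdx2, which in the authors' deposited table had an implied 612 CPM, that is read counts scaled to equal library totals, in Dox libraries and 4.96 CPM in noDox libraries, a 124-fold difference with a 95% interval of 109 to 140. All 6 fibroblast markers examined had at least 10 counts per library on average, and 4 of them were lower with Dox, Pdgfrb with a log2 fold change of -0.81 and Col1a2, Col1a1 and Vim with -0.33 to -0.26; Thy1 (0.30) and S100a4 (-0.12) were not called. Of the epithelial, blood and endothelial markers 1 of 4, 1 of 2 and 0 of 2 reached that count, among them Cdh1, which was lower with Dox (-1.62, limma adjusted p = 2.14e-11) at an implied 0.464 CPM in Dox libraries and 1.43 CPM in noDox libraries. The authors' deposited table gives 1 comparison and no values per library, so the level in each group was worked out from its mean log2 CPM and its log2 fold change, and a level compared between genes is per kb of exon. The mean effective library implied by the table was 4.57e+07 reads.

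The Zfp genes were expressed at low levels, and those that responded to Dox changed little in size. A gene counted as tested when it averaged at least 10 counts per library (0.230 CPM), and as called when the authors' deposited table gave it a limma adjusted p under 0.05. Of the 130 genes, 112 were tested, 82 on chromosome 7 and 30 on chromosome 13. The call was made for 18 of them, 14 higher and 4 lower with Dox, which is 16.1% of those tested (12.5% higher, 3.57% lower), against 24.7% of all 12355 genes tested (11.3% higher, 13.4% lower). Among the 2744 genes of the whole table between the Zfp genes' quartiles of level, 2.17 and 10.8 CPM, 26.6% were called (15.7% higher, 10.8% lower). The Zfp share called was below both backgrounds, and so was the share lower with Dox. The share higher with Dox was above that of all genes tested and below that of the level range. These differences were not tested. The median Zfp gene stood at 1.35 CPM per kb, against 5.86 CPM per kb for all genes tested, and its median standard error of log2 fold change was 0.11, against 0.080. The median log2 fold change was 0.076 over the 112 Zfp genes, with a range of -0.73 to 1.01, 0.041 over the genes of that level range and -0.0011 over all genes tested. Values above 0 made up 60.7% of the Zfp genes, 57.6% of the genes of that level range and 49.7% of all genes tested.

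Calls were made at modest sizes of change: the median called Zfp gene differed 1.34-fold between Dox and noDox, against 1.29-fold for all called genes. In the authors' deposited table, 5 called Zfp genes reached 1.5-fold and 1 reached 2-fold. The standard errors in that table follow almost wholly from level and fold (99.3% of the variance of their logarithm over 19541 transcripts), so they do not carry each gene's own replicate spread. Every standard error was then widened by the spread of t over the genes tested, a factor of 2.08. That spread takes in responses to Dox as well as noise, so the factor may be too large. The widening left 0 of the 18 calls, against 576 of all genes (4.66%). After the widening 7 Zfp genes had an unadjusted p under 0.05, and the share of all genes at that threshold was not worked out. With the trend of fold change on level taken out, the split was 14 higher and 7 lower, beside 14 higher and 4 lower.

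**Figure D1:**
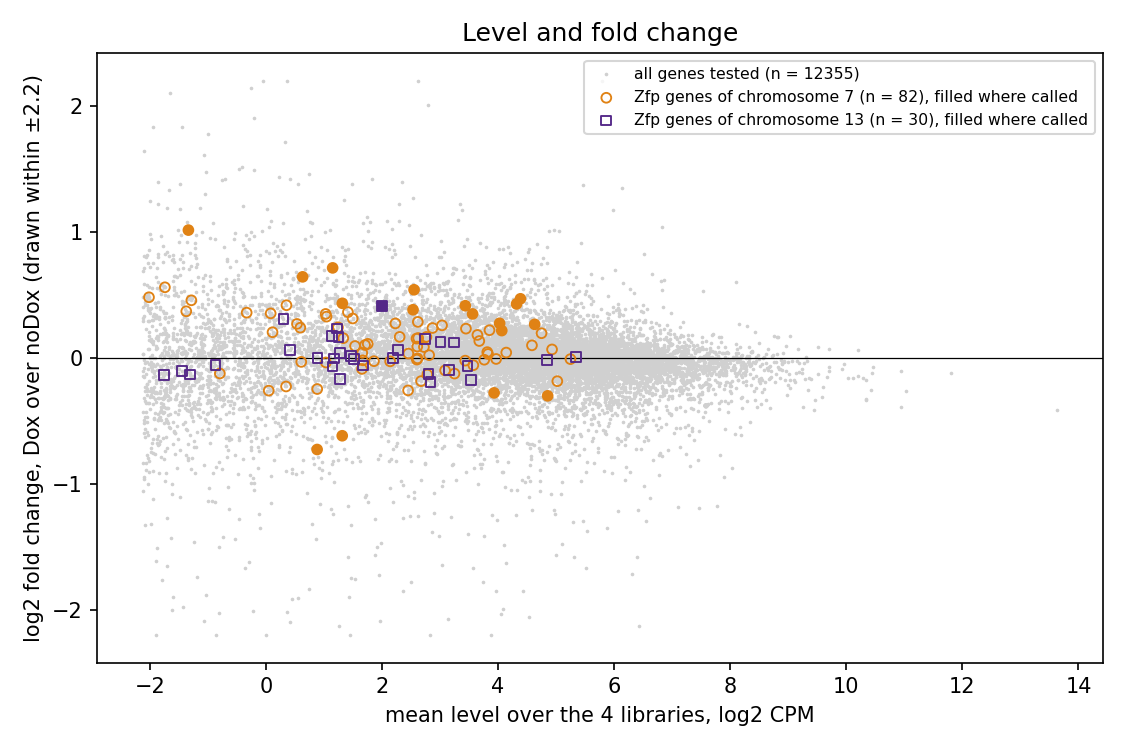
Log2 fold change of Dox over noDox (vertical axis, drawn within ±2.2) against the mean log2 CPM over the 4 libraries (horizontal axis) for the 12355 genes tested in grey, the 82 Zfp genes of chromosome 7 as circles and the 30 of chromosome 13 as squares, filled where called. The Zfp genes lie in the left and middle of the range of levels, and the only filled square is Zfp935.

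By chromosome, the calls lay almost all on chromosome 7. There, the authors' deposited table calls 13 Zfp genes higher and 4 lower of 82 tested (20.7%), with a median log2 fold change of 0.14 and values above 0 in 55 genes and below 0 in 27. On chromosome 13 it calls 1 higher and 0 lower of 30 tested (3.33%), with a median of 0.00 and values above 0 in 13 genes and below 0 in 17. At an unadjusted limma p under 0.05 the counts were 32 of 82 on chromosome 7 and 2 of 30 on chromosome 13. The share of all genes at that looser threshold was not worked out, so these counts have no background beside them. The other genes of the same chromosomes did not show such a gap, with 25.2% of 856 tested genes called on chromosome 7 and 25.5% of 462 on chromosome 13, at medians of 0.00 and -0.02. Chromosome 13 genes were also measured less precisely, at a median of 0.903 CPM per kb and a standard error of 0.139, against 1.58 CPM per kb and 0.109 on chromosome 7. A change of the median called size, 0.42 on the log2 scale, would have passed in 23 of the 30 chromosome 13 genes and in 62 of the 82 chromosome 7 genes. The difference between the chromosomes was not tested. Zfp genes of all other chromosomes, 216 tested of 262 listed, were called in 21.3% of cases, 29 higher and 17 lower, with a median of 0.08.

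Clusters were defined by position alone, as runs of at least 3 Zfp genes with at most 500 kb between neighbours. This gave 9 clusters on chromosome 7, named 7-A to 7-I in order along the chromosome, and 2 on chromosome 13, 13-A and 13-B. They hold 106 of the 130 genes. Of the 94 clustered genes tested, the authors' deposited table calls 12 higher and 2 lower (14.9%), at a median log2 fold change of 0.10. The 24 isolated genes had 18 tested, 2 higher and 2 lower (22.2%), at a median of -0.02. Both shares lay below the 24.7% called of all genes tested, and the differences were not tested. Genes of other symbols lying inside the cluster spans, 55 tested of 120, had 8 higher and 4 lower (21.8%) and a median of 0.00.

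**Figure D2:**
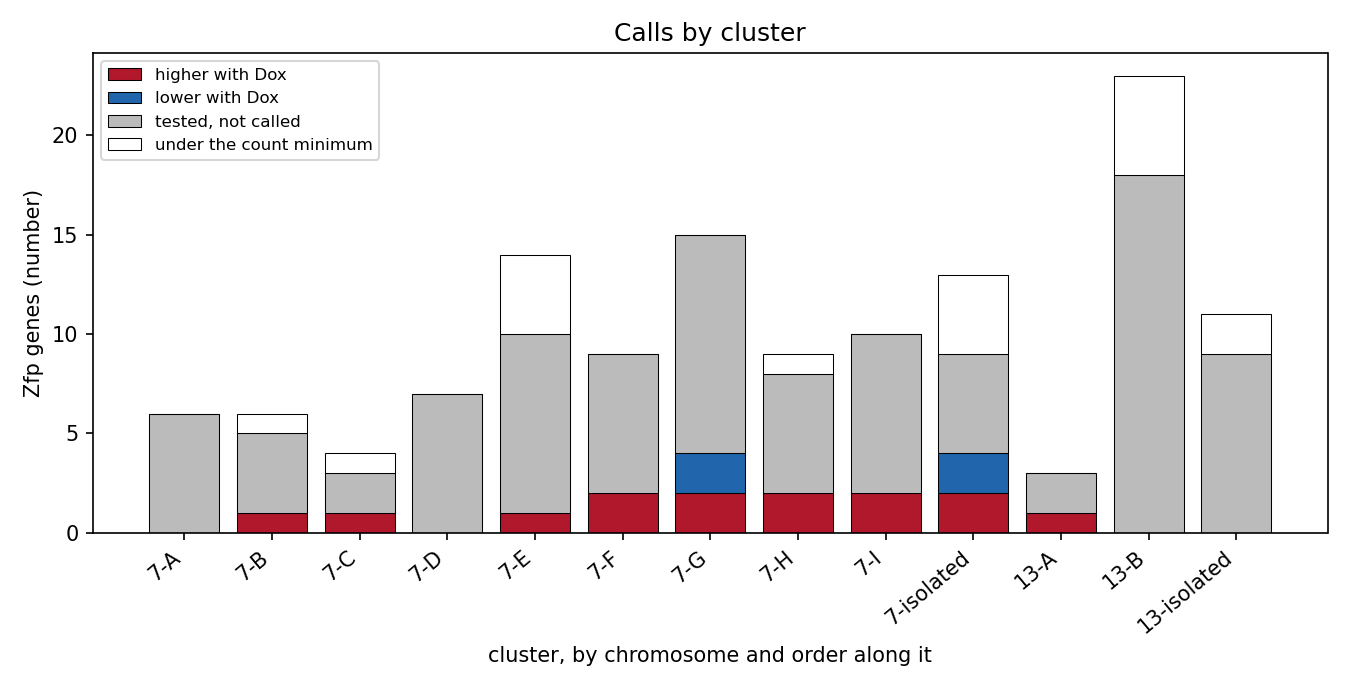
Number of Zfp genes (vertical axis) in each cluster and outside clusters, by chromosome (horizontal axis), stacked as higher with Dox, lower with Dox, tested and not called, and under the count minimum. Both colours of call occur in 7-G and among the isolated genes of chromosome 7, and 13-B, the tallest bar with 23 genes, holds no call.

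The clusters differed in how evenly their genes stood. Cluster 7-G (chr7:29768552-30169741, mm10) had all 15 genes tested, 2 higher and 2 lower, and the log2 fold changes in the authors' deposited table ran from -0.73 to 0.43. Clusters 7-F, 7-H and 7-I had 2 genes higher each and 0 lower, of 9, 8 and 10 tested. Clusters 7-B, 7-C and 7-E had 1 higher each, of 5, 3 and 10 tested (20.0%, 33.3% and 10.0%). Clusters 7-A and 7-D had none, of 6 and 7 tested. Cluster medians on chromosome 7 lay between 0.02 (7-A) and 0.36 (7-C), all above 0. In 7-C all 3 tested genes and in 7-F 8 of 9 had fold changes above 0, called or not. Over the 75 pairs of tested neighbours within clusters, 40 had fold changes of the same sign and 2 had both genes called. Values above 0 made up 64.9% of the clustered genes tested, which alone makes pairs of the same sign common. The share of neighbour pairs over all genes was not worked out.

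The large KRAB cluster of chromosome 13 showed no call, against 24.7% called of all genes tested, and this difference was not tested. Clusters 7-A and 7-D and the 9 tested isolated genes of chromosome 13 had no call either. Cluster 13-B (chr13:67038594-67827000, mm10) holds 23 genes, 19 of them on the minus strand, and its 18 tested genes had log2 fold changes of -0.17 to 0.23 in the authors' deposited table, with a median of 0.00. In 12 of the 18 the standard error was small enough for a change of 0.42 to be called. An unadjusted limma p under 0.05 was found in 0 of the 18, and the share of all genes at that threshold was not worked out. Its highest gene per length, Zfp87, had an implied 2.60 CPM per kb in Dox libraries and 2.35 CPM per kb in noDox libraries (log2 fold change 0.15 ± 0.11 SE, limma adjusted p = 0.490). Zfp493 had no reads and Zfp457, Zfp456, Zfp429 and Zfp459 fell under the count minimum. The near-identical pairs Zfp874a and Zfp874b and Zfp729a and Zfp729b, and the overlapping Zfp595 and Zfp953, can share reads, so their single values are uncertain.

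**Figure D3:**
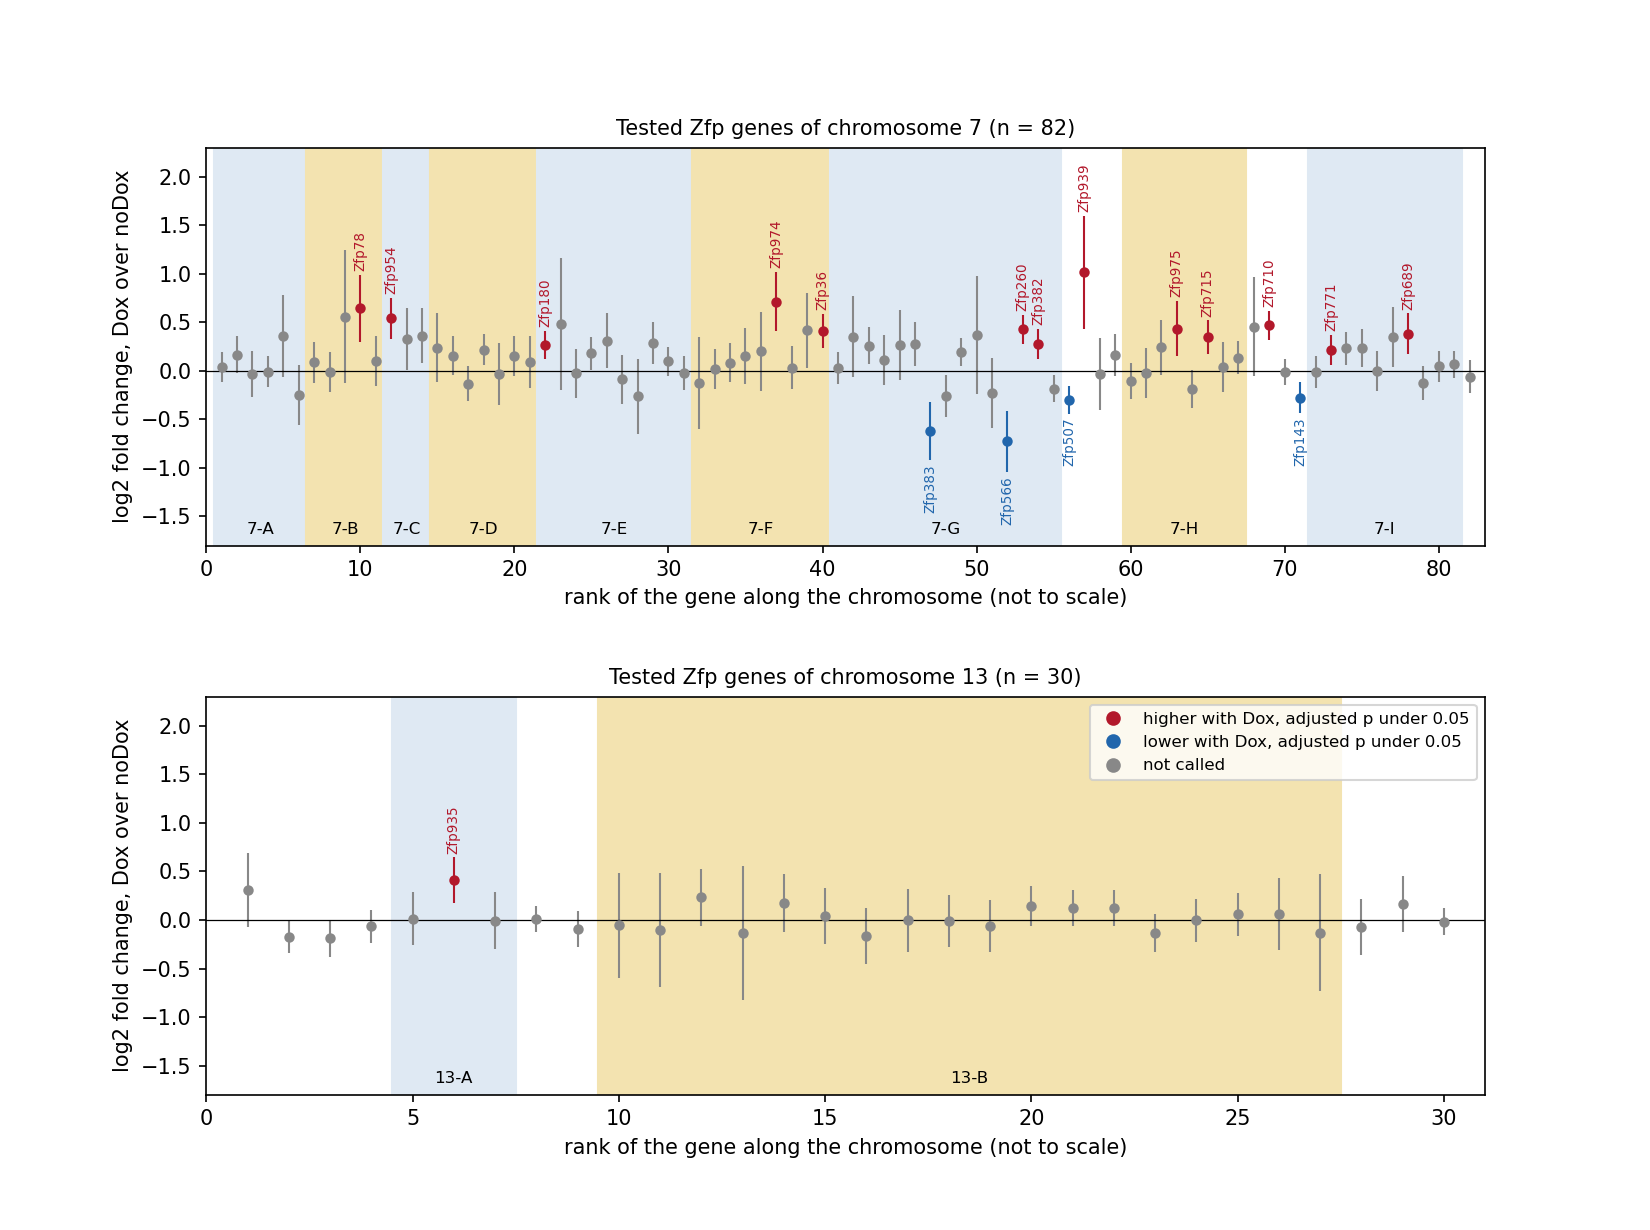
Log2 fold change of Dox over noDox with its 95% interval (vertical axis) for each tested Zfp gene in order along chromosome 7 (top, 82 genes) and chromosome 13 (bottom, 30 genes), with clusters shaded and named. Genes higher with Dox are red, genes lower with Dox are blue and others grey; the 4 blue points all lie on chromosome 7, and the 18 genes of 13-B scatter around 0.

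Cluster 7-G contained genes called in opposite directions close together. Zfp566, a KRAB zinc finger gene at chr7:30077337-30090510 on the minus strand, and Zfp260, a finger-only gene at chr7:30095076-30107614 on the plus strand whose product is known as a Gata4 partner in heart muscle, lie head to head with starts 4566 bp apart. Zfp566 had an implied 0.850 CPM per kb in Dox libraries and 1.41 CPM per kb in noDox libraries in the authors' deposited table, a log2 fold change of -0.73 ± 0.16 (SE, limma adjusted p = 1.23e-04). Zfp260 had 6.23 CPM per kb in Dox libraries and 4.63 CPM per kb in noDox libraries in the same table, a log2 fold change of 0.43 ± 0.08 (SE, limma adjusted p = 5.74e-07). The 95% intervals were -1.05 to -0.41 for Zfp566 and 0.28 to 0.58 for Zfp260. Calls in opposite directions place them on either side of 0, so their lack of overlap adds nothing to the calls. The KRAB gene Zfp382, at chr7:30121932-30140755 beyond Zfp260 on the same strand, was also higher with Dox, at 2.25 CPM per kb in Dox libraries and 1.86 CPM per kb in noDox libraries (0.27 ± 0.08, limma adjusted p = 0.00571 in the same table).

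The other gene of 7-G lower with Dox was Zfp383, a KRAB zinc finger gene at chr7:29908517-29916813. Its level was 0.768 CPM per kb in Dox libraries and 1.18 CPM per kb in noDox libraries, a log2 fold change of -0.62 ± 0.15 (SE, limma adjusted p = 7.06e-04 in the authors' deposited table). Its head-to-head neighbour Zfp27, with a start 2413 bp away, was not called (0.27 ± 0.12, adjusted p = 0.104 by limma). Of the 14 head-to-head neighbour pairs tested within clusters, 4 had starts within 10 kb, and 2 of these had fold changes of the same sign. Cluster 7-G also holds Zfp146, the gene of the finger-only protein OZF and among the highest Zfp genes per length, with 10.8 CPM per kb in Dox libraries and 12.3 CPM per kb in noDox libraries. Its log2 fold change of -0.19 ± 0.07 fell just short of the call in the authors' deposited table (limma adjusted p = 0.0568).

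The upstream sequences of Zfp566, Zfp260 and Zfp383, and of Zfp954 described next, are shown because they share a motif that is frequent upstream of Zfp genes. The longest word common to the first 3, on either strand, was ACTACATTTCCCAGA, found in 54 of the 32851 promoters of the table; its last base was left off and its middle 3 bases were opened for the search. Each is the 250 bases before the start site, 5′ to 3′ on the gene's strand, from RefSeq on GRCm38.p6 (the assembly of mm10), with the motif ACTACANNNCCCAG or its reverse complement in capitals. The regions are chr7:30090511-30090760 (minus strand) for Zfp566, chr7:30094826-30095075 (plus) for Zfp260, chr7:29908267-29908516 (plus) for Zfp383 and chr7:7121477-7121726 (minus) for Zfp954.
Zfp566: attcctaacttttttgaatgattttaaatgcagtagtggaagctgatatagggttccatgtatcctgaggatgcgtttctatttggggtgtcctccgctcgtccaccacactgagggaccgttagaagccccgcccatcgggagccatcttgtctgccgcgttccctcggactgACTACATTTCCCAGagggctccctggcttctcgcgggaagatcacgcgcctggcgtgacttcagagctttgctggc
Zfp260: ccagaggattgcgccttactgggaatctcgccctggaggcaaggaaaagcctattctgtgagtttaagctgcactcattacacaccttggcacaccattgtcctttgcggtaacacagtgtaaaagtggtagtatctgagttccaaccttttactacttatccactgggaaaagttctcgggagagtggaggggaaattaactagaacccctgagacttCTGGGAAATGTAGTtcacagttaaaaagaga
Zfp383: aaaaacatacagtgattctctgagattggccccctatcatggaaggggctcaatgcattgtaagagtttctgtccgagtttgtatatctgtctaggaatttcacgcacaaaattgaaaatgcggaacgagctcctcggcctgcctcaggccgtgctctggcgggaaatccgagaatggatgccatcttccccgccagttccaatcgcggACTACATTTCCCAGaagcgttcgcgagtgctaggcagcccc
Zfp954: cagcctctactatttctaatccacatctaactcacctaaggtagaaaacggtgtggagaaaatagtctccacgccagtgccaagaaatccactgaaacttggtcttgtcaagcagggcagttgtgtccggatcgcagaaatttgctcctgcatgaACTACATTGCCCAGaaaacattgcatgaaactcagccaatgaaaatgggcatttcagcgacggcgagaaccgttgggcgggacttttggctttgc
The motif lay 62, 17, 27 and 81 bases before the start site, in the order printed, and in Zfp260 it lies on the opposite strand. Its letters are those of the site known for the factors Znf143 and Thap11 at promoters, and it was chosen after the sequences were read. On either strand within 300 bases (250 before and 50 after the start) it was found in 27 of 115 Zfp promoters matched by symbol (23.5%), in 21 of 85 on chromosome 7 and 6 of 30 on chromosome 13. It was found in 383 of all 32851 promoters (1.17%) and in 10 of 269 promoters of Zfp genes on other chromosomes (3.72%). In cluster 7-G it was present in 8 of 14 promoters. The counts for the 115 Zfp promoters, chromosome 7, cluster 7-G and all promoters include the 3 genes the motif was read from. Those genes hold it by construction, which raises these shares, most of all in 7-G. Since the motif was read from 3 called genes, their calls say nothing about it; the other Zfp genes with the motif were called in the authors' deposited table in 2 of 19 tested cases (10.5%), and those without it in 13 of 80 (16.3%). Over all genes with the motif, 64 of 304 were called (21.1%), 35 higher and 29 lower.

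Zfp143 itself, whose product is the activator that reads this kind of site, was lower with Dox. The gene lies alone at chr7:110061702-110095392 and had an implied 4.65 CPM per kb in Dox libraries and 5.63 CPM per kb in noDox libraries in the authors' deposited table. Its log2 fold change was -0.28 ± 0.08 (SE, limma adjusted p = 0.00580). The remaining gene lower with Dox was Zfp507, a finger gene without a KRAB box at chr7:35772346-35802989, with 3.90 CPM per kb in Dox libraries and 4.81 CPM per kb in noDox libraries (-0.30 ± 0.07, limma adjusted p = 4.23e-04 in the authors' deposited table). Its row overlaps the antisense gene E130304I02Rik, and whether counting used strand is not stated in the labels or headers, so reads of both genes cannot be told apart.

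Zfp36, which encodes tristetraprolin, an early-response mRNA decay factor, was higher with Dox. It is the last gene of cluster 7-F, at chr7:28376784-28379228 on the minus strand. It had 7.09 CPM per kb in Dox libraries and 5.32 CPM per kb in noDox libraries in the authors' deposited table, a log2 fold change of 0.41 ± 0.09 (SE, limma adjusted p = 6.20e-05). Its relatives of the same family went different ways: Zfp36l2 was higher with Dox (0.27, limma adjusted p = 1.28e-04) and Zfp36l1 was lower (-0.57, limma adjusted p = 1.14e-15), each in the authors' deposited table. Of the 14 tested genes of a list of the other family members, the Ccr4-Not deadenylase and AU-rich element binding proteins, Zfp36l2 was the 1 higher and Zfp36l1 and Cnot6l (-0.20) were the 2 lower (21.4% called, against 24.7% of all genes), at a median of -0.01.

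The core motif of CDX factors was looked for upstream of the Zfp genes, and it was about as frequent there as elsewhere. CNATAAA, on either strand within the same 300 bases, was present in 14 of 115 Zfp promoters (12.2%) and in 10.9% of all 32851 promoters. The shorter ATAAA, which CNATAAA contains, was present in 38 (33.0%) and in 40.01% of all. Of 90 tested Zfp genes without CNATAAA, 16 were called in the authors' deposited table (17.8%), against 24.7% of all genes tested. Of 12 with it, 2 were called (16.7%), Zfp36 and Zfp689, both higher with Dox. The 250 bases before these start sites are shown with the motif in capitals, at chr7:28379229-28379478 (minus strand) for Zfp36 and chr7:127449159-127449408 (minus strand) for Zfp689, from RefSeq on GRCm38.p6.
Zfp36: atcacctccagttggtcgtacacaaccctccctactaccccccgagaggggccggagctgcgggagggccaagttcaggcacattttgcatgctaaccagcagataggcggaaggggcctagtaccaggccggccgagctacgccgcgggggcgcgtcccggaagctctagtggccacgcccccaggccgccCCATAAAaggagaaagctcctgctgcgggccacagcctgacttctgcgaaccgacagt
Zfp689: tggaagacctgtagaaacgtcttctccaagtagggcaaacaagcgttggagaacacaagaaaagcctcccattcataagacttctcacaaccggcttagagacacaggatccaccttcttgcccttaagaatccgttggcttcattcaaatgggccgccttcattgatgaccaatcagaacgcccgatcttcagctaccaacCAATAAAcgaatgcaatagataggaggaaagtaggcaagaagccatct
The motif ends 51 bases before the start site in Zfp36 and 41 bases before it in Zfp689. Zfp689, a KRAB zinc finger gene of cluster 7-I, had 1.83 CPM per kb in Dox libraries and 1.40 CPM per kb in noDox libraries in the authors' deposited table (0.38 ± 0.11, limma adjusted p = 0.00390).

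Among the other genes higher with Dox, those with the larger changes were weakly expressed. Standard errors are larger at low levels, so only larger changes could be called there. The call itself therefore partly sets this pattern. Zfp939, at chr7:39449511-39477416 and represented by a non-coding transcript, had 0.227 CPM per kb in Dox libraries and 0.112 CPM per kb in noDox libraries in the authors' deposited table, with a mean of 17.6 counts per library. Its log2 fold change was 1.01 ± 0.30 (SE, limma adjusted p = 0.00621). Zfp974, a gene for 21 fingers without a KRAB box in cluster 7-F, had 0.390 CPM per kb in Dox libraries and 0.238 CPM per kb in noDox libraries (0.71 ± 0.16, limma adjusted p = 8.57e-05 in the authors' deposited table). Zfp78 of 7-B has a KRAB box by a widened set of sequence patterns, but not by the stricter pattern. It had 0.396 CPM per kb in Dox libraries and 0.254 CPM per kb in noDox libraries (0.64 ± 0.18, limma adjusted p = 0.00291 in the same table). These 3 genes had the lowest levels per length of the 18 called.

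Further KRAB genes higher with Dox stood above these in level. Zfp954, at chr7:7114683-7121476 in 7-C, had 3.49 CPM per kb in Dox libraries and 2.40 CPM per kb in noDox libraries in the authors' deposited table (0.54 ± 0.11, limma adjusted p = 1.35e-05). The other tested genes of that small cluster had log2 fold changes of 0.33 and 0.36 in the same table and were not called. Cluster 7-H held Zfp715, with 3.11 CPM per kb in Dox libraries and 2.44 CPM per kb in noDox libraries (0.35 ± 0.09, limma adjusted p = 8.76e-04 in the authors' deposited table), and Zfp975, with 0.922 CPM per kb in Dox libraries and 0.683 CPM per kb in noDox libraries (0.43 ± 0.14, limma adjusted p = 0.0220), both of the KRAB type. On chromosome 13, the single call was Zfp935 of cluster 13-A, a KRAB-type gene at chr13:62453016-62466812. It had 1.86 CPM per kb in Dox libraries and 1.40 CPM per kb in noDox libraries in the authors' deposited table (0.41 ± 0.12, limma adjusted p = 0.00648), while its neighbours Zfp808 (0.01 ± 0.14) and Zfp934 (-0.01 ± 0.15) were not called.

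Apart from Zfp974, the called genes without a KRAB box, by a wider set of sequence patterns, were expressed above those with one, at means of at least 4.33 CPM per kb against at most 2.89 CPM per kb. Zfp710, isolated at chr7:80026228-80092751, had 5.43 CPM per kb in Dox libraries and 3.93 CPM per kb in noDox libraries in the authors' deposited table (0.47 ± 0.08, limma adjusted p = 2.09e-08), the smallest adjusted p of the Zfp genes; its row overlaps the antisense gene Gm21057. Zfp180, the first gene of 7-E, had 6.76 CPM per kb in Dox libraries and 5.63 CPM per kb in noDox libraries (0.27 ± 0.07, limma adjusted p = 0.00369 in the same table). Zfp771 of 7-I had the highest level per length of all 112, 13.9 CPM per kb in Dox libraries and 11.98 CPM per kb in noDox libraries (0.22 ± 0.08, limma adjusted p = 0.0439 in the authors' deposited table). That call was lost with the trend on level taken out (adjusted p = 0.0775). Of the 2 tested transcripts of Zfp771, 1 was called.

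**Figure D4:**
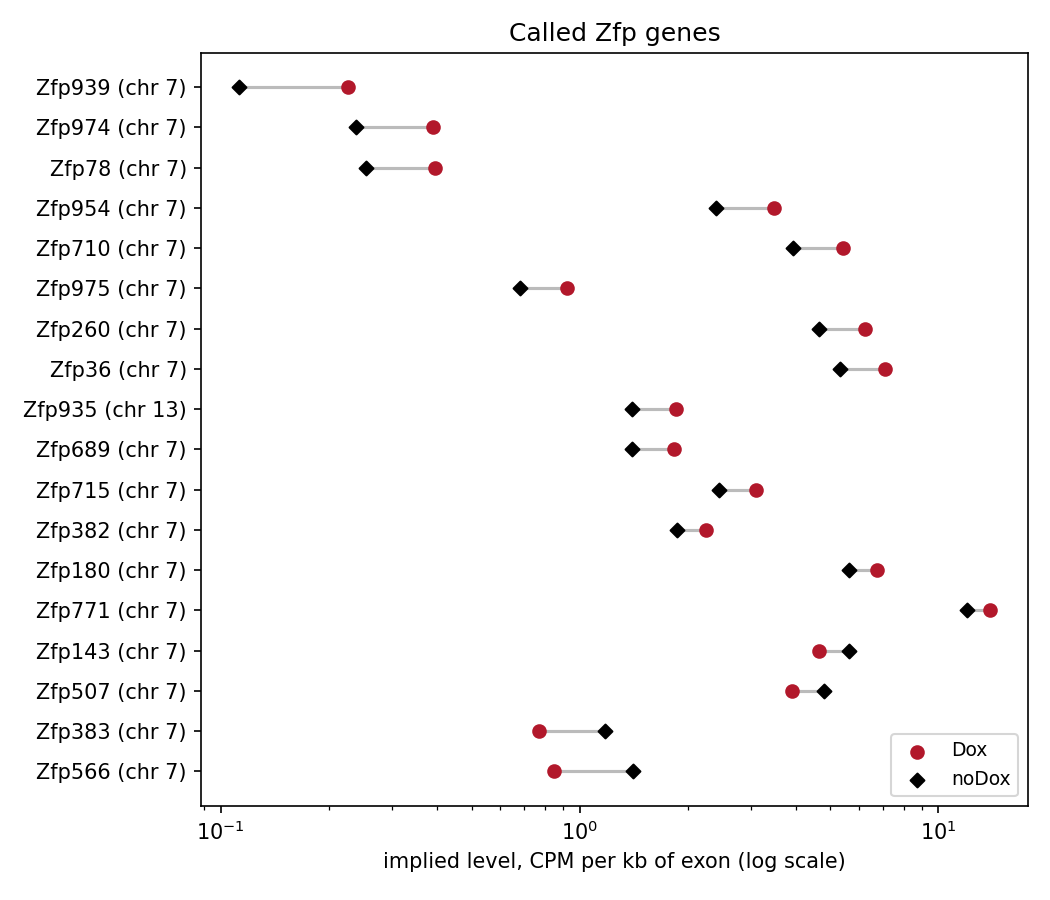
Implied level in CPM per kb of exon (horizontal axis, log scale) with Dox (red circles) and noDox (black diamonds) for the 18 called Zfp genes, ordered by log2 fold change. The 14 genes above have the circle to the right of the diamond and the 4 below have it to the left, and Zfp771, at 13.9 CPM per kb with Dox, lies farthest right.

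Of the 5 best expressed Zfp genes, 1 was called, Zfp771. The 5 highest per length were Zfp771, Zfp146, Zfp367 (mean 11.6 CPM per kb), Zfp511 (10.9) and Zfp131, a BTB-domain zinc finger gene (9.12); the last 3 had log2 fold changes in the authors' deposited table of 0.01 ± 0.07, -0.06 ± 0.09 and -0.02 ± 0.07. Among the highest genes per length of each cluster, Zfp628 in 7-A (0.04 ± 0.08), Zfp787 in 7-B (0.09 ± 0.11) and Zfp110 in 7-D, which encodes a neurotrophin receptor interacting factor (0.22 ± 0.08, limma adjusted p = 0.0561) were not called, while Zfp935, Zfp954, Zfp180, Zfp36, Zfp715 and Zfp771, the highest of theirs, were. In all, 5 genes had an adjusted p between 0.05 and 0.06, namely Zfp110, Zfp146, Zfp568, Zfp790 and Zfp768, a set named after their values were seen. Zfp568, the repressor of a placental Igf2 transcript in the mouse, was nearest at 0.0503 by limma (0.20 ± 0.07). Of its 3 tested transcripts 2 were called, and of the 2 of Zfp790 1 was called. The transcripts standing for these genes were not, so whether they count as called depends on the transcript used. The largest uncalled changes were imprecise: Zfp667 had 0.56 ± 0.35, Zfp112 0.48 ± 0.35 and Zfp473 0.46 ± 0.26 on the log2 scale in the authors' deposited table, at means of 10.8 to 18.3 counts per library.

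By protein type, the KRAB genes were lower in level than the rest, and the share called was not tested between the types. Translated GENCODE coding sequences were at hand for 128 of the genes, and 125 of these had at least 1 C2H2 finger, with a median of 12 and at most 33. A KRAB box was found in 85 by a set of patterns widened after the sequences were read, and in 67 by the stricter pattern. The 73 tested genes with a box by the wider set stood at a median of 0.963 CPM per kb, with 7 higher and 2 lower with Dox (12.3%) and a median log2 fold change of 0.11 in the authors' deposited table. The 38 tested genes without one stood at 3.98 CPM per kb, with 6 higher and 2 lower (21.1%) and a median of 0.03. By the stricter pattern the contrast was smaller, with 1.05 CPM per kb and 13.8% called among 58 tested genes with a box, against 2.24 CPM per kb and 17.0% among 53 without. Each of these shares, with or without a box, lay below the 24.7% called of all genes tested (11.3% higher, 13.4% lower).

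The partners through which KRAB proteins silence were called about as often as all genes, in 5 of 21 tested (23.8%, against 24.7%). The authors' deposited table calls 3 higher with Dox, the remodeller Chd3 (0.66), Morc3 (0.34) and the deacetylase Hdac1 (0.22), and 2 lower, the HP1 gene Cbx5 (-0.24) and the methyltransferase Setdb1 (-0.21). Trim28, the corepressor that KRAB domains bind, had 230 CPM in Dox libraries and 243 CPM in noDox libraries (-0.08 ± 0.06, limma adjusted p = 0.522). Of the SCAN-type zinc finger genes, relatives with a SCAN dimerisation domain, 17 were tested and 6 were higher and 1 lower with Dox (41.2% called and 35.3% higher, against 24.7% and 11.3% of all genes), including Zscan21 (0.55) and Zkscan5 (0.49) higher and Zkscan8 (-0.39) lower, at a median log2 fold change of 0.15 in the authors' deposited table; no test set this list against other genes.

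The 18 Zfp genes under the count minimum comprised 5 without reads, Zfp493 and Zfp366 on chromosome 13 and Zfp583, Zfp109 and Zfp536 on chromosome 7, and 13 with some reads. None of the 18 had an adjusted p under 0.05 by limma in the authors' deposited table, and 1, Zfp389, had an unadjusted p under 0.05. Several transcripts were tested for 51 of the genes, and in all 51 they agreed in sign. Transcripts of a gene mostly share exons and so reads, so this agreement was close to given beforehand.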

How the data were processed

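The 4 libraries (2 Dox, 2 noDox, grouped by sample title) were directional RNA-seq of nuclear RNA, per the labels' protocols. The dose is per ml in the extraction protocol but per microlitre in the treatment text. The build mm10 and, without roles, the tools limma, edgeR, HOMER 4.10, Picard, STAR 2.7.1a and SAMtools 1.10 are named in the submitters' processing notes. Per the file headers, the authors' deposited table of 40739 transcripts holds log2 values (fold change and mean expression), a moderated t score, p-values and adjusted p-values, with other columns for transcript start, end and exon length; 2 further columns were not used. The genes and gene lists were chosen with earlier results of these data known.

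Standard errors are the log2 fold change divided by t, and group levels are 2 to the power of the mean log2 CPM shifted up for Dox and down for noDox by equal amounts so that the groups differ by the fold change. The table holds no values per library, so its own limma test was used. Named genes were all called ones, the highest per kb of each cluster and the 5 highest of all, Zfp36, Zfp143 and the 3 largest uncalled changes. Finger and KRAB patterns were counted in translated GENCODE M21 coding sequences. The p adjustment was tested on simulated data. Work was done in Python 3.11.15 with pandas 2.3.3 and statsmodels 0.14.6. Alternatives changed the count minimum, transcript, p adjustment, standard error, scaling and size of change.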

Additional observations from a re-analysis of the deposited data

How the results depend on the processing

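With widened standard errors no Zfp gene was called: 0 in all, 0 higher, 0 lower, 0 on chromosome 7 and 0 on chromosome 13. The factor of 2.08 used there takes in responses to Dox as well as noise. With a change of at least 1.5-fold also asked for, 5 were called in all, 3 higher and 2 lower, 5 on chromosome 7 and 0 on chromosome 13, against 5.65% of all genes. With the trend of fold change on level removed, 7 were lower and 2 were called on chromosome 13 (Zfp935 and Zfp322a), and 17 of the 18 original calls remained, Zfp771 being lost; that trend's cause was not tested. The other settings gave 16 (genes without overlap) to 25 calls (adjusted over the genes tested, or centred on the median gene). In those last settings Zfp110, Zfp146, Zfp428, Zfp568, Zfp768, Zfp772 and Zfp790 passed the threshold. The median log2 fold change of the Zfp genes was 0.040 to 0.11 over its alternatives, and there were 11 clusters with gaps of 250 kb and 10 with gaps of 1000 kb. No gene named by the rule changed sign under the settings run for it, and the signs of the other genes were not followed. Only the choice of transcript, the centring and the removal of the trend could alter a sign, as the other settings leave the fold change as it is. No paired analysis was possible because the authors' deposited table holds no values per library; for the same reason edgeR, DESeq2 and leaving out single libraries were not run. Standard errors were small enough for a log2 change of 0.42 to be called in 85 of the 112 Zfp genes tested, so smaller changes, and changes in the other genes, could go uncalled at this depth.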
